A study of Mus musculus with 10 samples.

Results

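The matrix metalloproteases (MMPs), the ADAMTS proteases and the tissue inhibitors of metalloproteases (TIMPs) were followed across sorted mouse melanoma cells. Members were all gene names made of Mmp, Adamts or Timp and a number, which gave 46 of the 34162 gene names measured: 23 Mmp, 19 Adamts and 4 Timp genes. Amplified RNA was sequenced in 10 libraries from mice of a C57BL/6:SV129 background. Cells came from primary melanoma in skin or from metastatic melanoma in lymph node, and were sorted by GFP into c-Myc-high (GFP-positive) and c-Myc-low (GFP-negative) cells. The 4 groups were primary c-Myc-high (n = 2), primary c-Myc-low (n = 2), metastatic c-Myc-high (n = 3) and metastatic c-Myc-low (n = 3). The labels name neither the tumour-driving alleles, nor the GFP reporter's construct, nor the age of the mice, nor whether replicates came from separate animals. The p-values below therefore measure only the spread between these libraries, which may be technical.

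MMPs are zinc endopeptidases that together can cut most components of the extracellular matrix. They are made as inactive precursors and opened by other proteases such as plasmin, furin or a membrane-bound MMP. ADAMTS proteases are secreted relatives whose thrombospondin repeats tie them to matrix. They trim procollagens, cut large proteoglycans and act on fibrillin microfibrils. TIMPs bind the active site of MMPs, and Timp3 also blocks ADAMTS proteases. In melanoma and its surrounding skin these genes are known for remodelling collagen and basement membrane, and stromal and immune cells make many of them.

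The total estimated count lay between 1603012 and 6844328 per library. Levels are given as CPM, the count scaled to a library size of 1e6 after TMM correction. On this scale 3 counts in 1 library stood for 0.362 to 2.80 CPM. The sorted gene itself, Myc, stood at 997 and 104 CPM in the primary c-Myc-high libraries and at 162 and 318 CPM in the primary c-Myc-low libraries. Libraries of metastases held 148, 267 and 234 CPM in c-Myc-high and 101, 230.5 and 317 CPM in c-Myc-low cells. Myc levels overlapped between the GFP classes at both sites. The primary log2 difference was 1.20 (SE 0.98, edgeR adjusted p = 0.623) and the metastatic one 0.0021 (SE 0.79, adjusted p = 1), so c-Myc-high and c-Myc-low below are names of the sort gates. The libraries held RNA of other cell types in unequal amounts. Summed levels of 11 keratinocyte markers were 21435 to 85754 CPM in primary and 25.7 to 344 CPM in metastatic libraries, and those of 11 fibroblast markers were 1833 to 5690 and 86.1 to 1040 CPM. All 11 of each list were detected in every group. Postn made up 1915 CPM of the fibroblast sum in primary c-Myc-high replicate 1, and 1656 and 3177 CPM in the primary c-Myc-low libraries. Col1a1 stood at 0.72, 29.9 and 76.9 CPM in the same libraries, at 2436 CPM in primary c-Myc-high replicate 2 and at 7.80 to 249 CPM in metastases. The fibroblast list thus separated the sites mainly through Postn. Summed levels of 9 melanocyte and melanoma markers were 582 to 2725 CPM in primary and 2824 to 20198 CPM in metastatic libraries. Of the markers of leukocytes, which fill lymph nodes, the pan-leukocyte and B cell lists also separated the sites. Sums of 8 pan-leukocyte markers were 33.2 to 149 CPM in primary and 246 to 4592 CPM in metastatic libraries, and those of 8 B cell markers were 0 to 8.64 and 89.5 to 2817 CPM. Cd53 was at 0 in both primary c-Myc-high libraries, and Pax5 and Blk in both primary c-Myc-low libraries, while all 8 markers of both lists were detected in each metastatic group. The other leukocyte lists overlapped. Sums of 11 macrophage and monocyte markers were 4.80 to 129 CPM in primary and 84.2 to 943 CPM in metastatic libraries. Those of 9 T cell markers were 64.4 to 320 and 64.4 to 734 CPM, with Thy1 making up 318 CPM of the highest primary sum. Those of 10 neutrophil markers were 140 to 226 and 82.9 to 12915 CPM. Sums of 9 endothelial markers also overlapped, at 27.1 to 883 CPM in primary and 84.2 to 555 CPM in metastatic libraries, with Flt1 making up 878 CPM of the highest. Metastatic c-Myc-high replicates 1 and 3 carried 220151 and 63103 CPM of 12 salivary gland genes, against at most 771 CPM elsewhere. Metastatic c-Myc-high replicate 2 and metastatic c-Myc-low replicate 3 carried 12915 and 4091 CPM of 10 neutrophil markers, against at most 341 CPM elsewhere. These 2 pairs are called salivary-rich and neutrophil-rich below. The neutrophil-rich pair also had the highest sums of the other leukocyte lists. These were 943 and 525 CPM for macrophages and monocytes, 4592 and 2946 CPM for pan-leukocyte, 2817 and 2015 CPM for B cell and 734 and 519 CPM for T cell markers. S100a9 (8260 and 2665 CPM) and S100a8 (3826 and 1034 CPM) made up most of the neutrophil sums. The name thus stands for a high marker sum and not for neutrophils alone. The part of any of these cell types in the results was not tested, and fewer cells of a type cannot be told apart from less RNA per cell in such bulk samples.

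Of the 46 genes, 44 had at least 1 count and Adamts13 and Mmp20 had none in any library after rounding. The filter on low counts kept 35 for testing among 16805 genes. The 11 others were those 2 and Adamts3, Adamts8, Adamts16, Adamts18, Adamts19, Mmp1b, Mmp7, Mmp21 and Timp4, with 2 to 50 counts over all libraries and at most 5.49 CPM in any. More members were seen in the c-Myc-low libraries, with 37 and 37 having a count in primary and 35, 41 and 38 in metastatic libraries. The primary c-Myc-high libraries showed 23 and 25, and the metastatic c-Myc-high libraries 28, 32 and 27. In 1200000 counts drawn from each library the expected numbers were 18.7 and 24.5 for primary c-Myc-high, 28.7 and 33.8 for primary c-Myc-low, 25.2 to 28.2 for metastatic c-Myc-high and 32.4 to 38.7 for metastatic c-Myc-low. The 2 GFP classes did not overlap within either site, in the observed or the drawn numbers. The observed numbers over all genes did not overlap either, with 18193 and 17290 genes seen at least once in the c-Myc-high and 21781 and 20753 in the c-Myc-low libraries of primary tumours. The metastatic classes gave 17628 to 21345 and 21817 to 24034 genes. The observed difference is thus not particular to the members. No draw to equal depth was made over all genes.

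**Figure D1:**
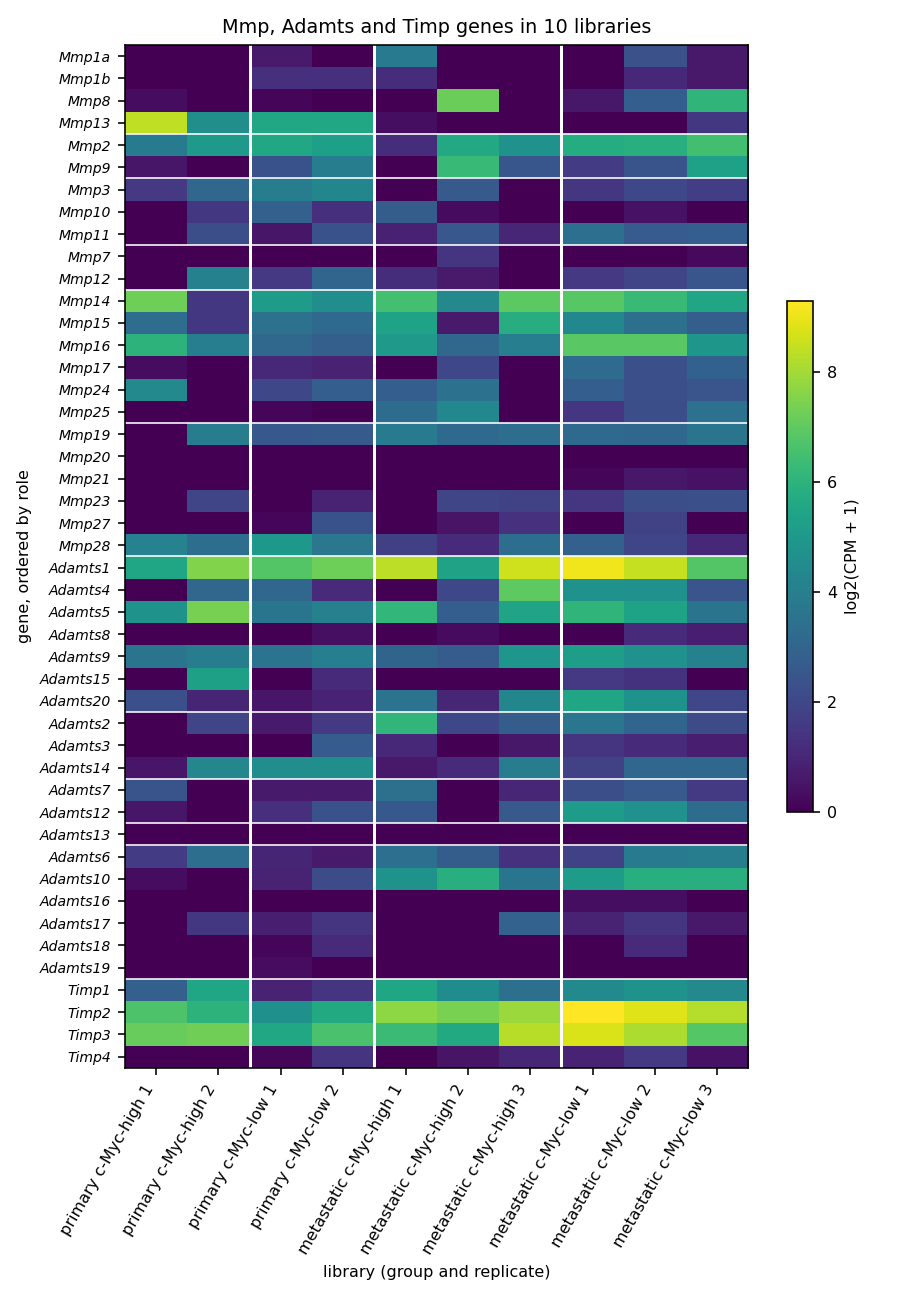
Level of each of the 46 genes (rows, by role) in each of the 10 libraries (columns), as log2(CPM + 1), with white lines between groups and between roles. Timp2, Timp3 and Adamts1 are bright in most libraries, Mmp13 in the 4 primary libraries, and many rows are dark throughout.

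Few members differed at an adjusted p under 0.05, and all of those that did differed between the sites. Mmp13, a collagenase, was lower in metastases. Adamts10, Timp2 and Mmp25 were higher. In c-Myc-high cells edgeR called 1 member higher and 1 lower of 35, where 1.65% of all tested genes were called higher and 2.31% lower. In c-Myc-low cells it called 1 higher and 0 lower, where 0.375% and 1.74% of all genes were called. Averaged over both GFP classes it called 3 higher and 1 lower, where the shares of all genes were 8.13% and 5.64%. The members' counts were thus near these background shares. At an unadjusted p under 0.05 there were 7 members in c-Myc-high cells (26.2% of all genes), 10 in c-Myc-low cells (15.1%) and 10 in the average (30.4%). The median log2 difference of the 35 members was 0.60 in c-Myc-high cells, against 0.38 over all genes. It was 1.57 against 0.10 in c-Myc-low cells and 1.29 against 0.28 in the average. Differences were above 0 for 25, 27 and 27 of the 35 members in these 3 comparisons (71.4%, 77.1% and 77.1%), against 56.7%, 53.8% and 57.6% of all tested genes. Among all tested genes, 5.73% had all 6 metastatic libraries above all 4 primary libraries and 5.06% had all below. Of the members, Adamts10, Adamts2 and Timp2 lay wholly above, and Mmp13 and Mmp28 wholly below.

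**Figure D2:**
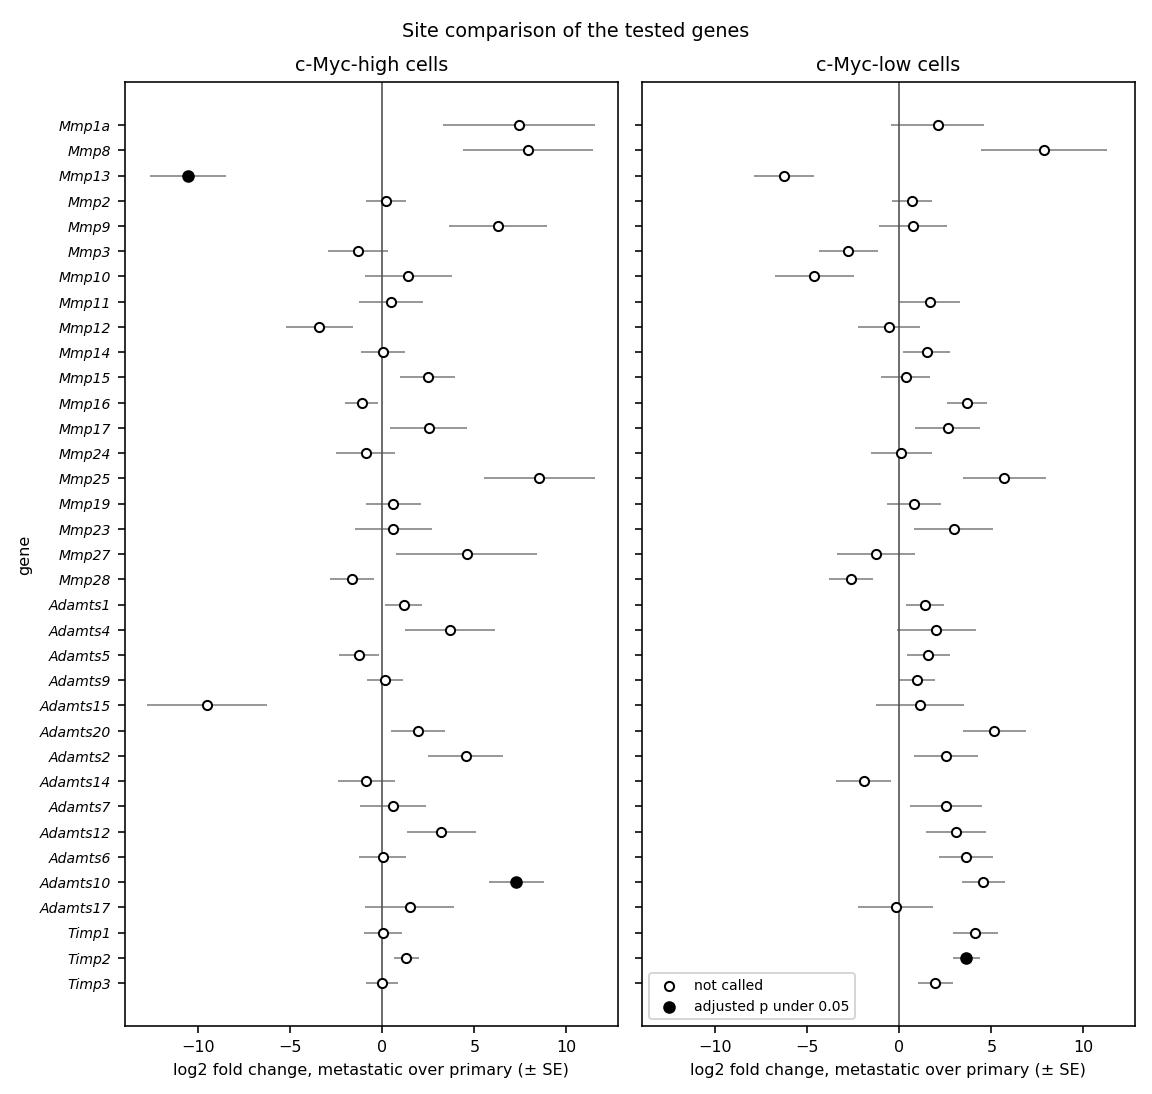
Log2 fold change of metastatic over primary cells (horizontal axis, bars ± SE from edgeR) for the 35 tested genes, in c-Myc-high cells (left) and c-Myc-low cells (right). Filled points have an adjusted p under 0.05: Mmp13 at -10.56 and Adamts10 at 7.27 on the left, and Timp2 at 3.65 on the right.

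Of the interstitial collagenases, which cut fibrillar collagen, Mmp13 carried the clearest site difference. Mmp13 (ENSMUSG00000050578.10, GRCm38 chr9:7272514-7283331, plus strand) stood at 341 and 23.3 CPM in the primary c-Myc-high libraries and at 45.9 and 45.4 CPM in the primary c-Myc-low libraries. Its metastatic levels were 0.269, 0 and 0 CPM in c-Myc-high and 0, 0 and 1.84 CPM in c-Myc-low libraries. Every primary library lay above every metastatic one, and primary c-Myc-high replicate 1 was the highest by far. The log2 fold change of metastatic over primary cells averaged over both classes was -8.41 (SE 1.32, edgeR adjusted p = 0.00215). In c-Myc-high cells it was -10.56 (SE 2.06, adjusted p = 0.0186). There 1 count stood against 1445, a level 2918-fold higher in primary cells with an exact 95% interval of 523 to 115344 for counting error only. In c-Myc-low cells it was -6.27 (SE 1.64, adjusted p = 0.0767). The averaged call held in all 18 alternative fits, with values between -10.66 and -7.08. The call in c-Myc-high cells did not survive leaving out metastatic c-Myc-high replicate 1 (adjusted p = 0.0663) or replicate 2 (0.0566). It was also absent without replicate 1 of the primary c-Myc-high group or both salivary-rich libraries, fits that each left 1 library in a group. The keratinocyte and fibroblast marker sums were also lower in every metastatic library. Among the primary libraries, c-Myc-high replicate 2 had the highest of both sums (85754 and 5690 CPM) and the lowest Mmp13 level (23.3 CPM). Postn carried most of the fibroblast sum in every primary library but c-Myc-high replicate 2. The part of these cell types in the Mmp13 difference was not tested.

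Mmp13 opens a row of 10 Mmp genes on chromosome 9. In order these are Mmp13, Mmp12, Mmp1b, Mmp3, Mmp1a, Mmp10, Mmp8, Mmp27, Mmp20 and Mmp7, between positions 7272514 and 7699585 of GRCm38. Promoters of several of these genes are known to hold sites for the AP-1 factors (Fos and Jun proteins) next to a TATA box. Promoter windows of 250 bases before the start were found in RefSeq (GRCm38.p6) for 32 of the 46 members, a gene counting once over its starts. The AP-1 letters TGANTCA stood in 8 of the 10 genes of the row, on either strand, and in 0 of the 22 other members, against 6.75% of all 32851 promoter windows of the same length. TATAAA stood in 7 of the 10 and in 2 of the 22, against 12.4% of all windows. GGGCGG, the letters of a GC box, stood in 0 of the 10 and in 16 of the 22, against 32.7%. AGGAAG, an Ets-type motif, stood in 6 of the 10 and 7 of the 22, against 29.5%. CACGTG, the E-box bound by Myc and Max, stood in 2 of the 32, Mmp7 and Adamts17, against 6.02%. Overlap between motifs was allowed. A match describes letters only and shows no binding. The stretches before the starts of 6 genes of the row and of Mmp25 are shown so that the layouts can be compared with the levels. They are from RefSeq (GRCm38.p6), 5′ to 3′ on the gene's strand, with the AP-1, TATA and GC box letters on either strand in capitals.
Mmp13 (chr9:7272404-7272513, plus strand): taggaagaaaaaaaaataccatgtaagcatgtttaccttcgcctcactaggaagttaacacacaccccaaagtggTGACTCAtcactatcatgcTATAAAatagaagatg
Mmp3 (chr9:7445712-7445821, plus strand): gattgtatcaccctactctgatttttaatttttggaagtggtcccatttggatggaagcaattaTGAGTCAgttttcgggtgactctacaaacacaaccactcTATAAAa
Mmp10 (chr9:7502232-7502341, plus strand): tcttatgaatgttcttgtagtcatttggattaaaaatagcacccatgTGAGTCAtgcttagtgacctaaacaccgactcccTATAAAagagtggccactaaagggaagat
Mmp1a (chr9:7464031-7464140, plus strand): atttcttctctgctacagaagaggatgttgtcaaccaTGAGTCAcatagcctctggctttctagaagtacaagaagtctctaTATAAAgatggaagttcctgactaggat
Mmp12, before the second of its 2 RefSeq starts (chr9:7347264-7347373, plus strand): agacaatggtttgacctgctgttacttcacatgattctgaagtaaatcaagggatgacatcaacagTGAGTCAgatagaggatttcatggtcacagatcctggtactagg
Mmp8 (chr9:7558319-7558428, plus strand): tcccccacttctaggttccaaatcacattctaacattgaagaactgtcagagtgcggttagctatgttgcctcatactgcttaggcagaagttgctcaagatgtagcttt
Mmp25 (chr17:23645278-23645387, minus strand): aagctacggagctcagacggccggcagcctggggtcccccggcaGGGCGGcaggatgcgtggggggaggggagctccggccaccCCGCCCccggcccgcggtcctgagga

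Genes with the same letters did not share 1 pattern of levels. Mmp3, a stromelysin with both the AP-1 and the TATA letters, stood at 1.92 and 7.46 CPM in primary c-Myc-high and at 14.1 and 18.2 CPM in primary c-Myc-low libraries. In metastases Mmp3 stood at 0, 5.10 and 0 CPM and at 1.79, 3.09 and 2.21 CPM in the 2 classes. The sites overlapped for Mmp3, and its averaged log2 difference of -2.04 (SE 1.13) had an adjusted p of 0.252. Mmp10, another stromelysin, had 57 counts in primary and 3 in metastatic c-Myc-low cells. Most of the 57 lay in replicate 1 (6.27 CPM, against 1.44 CPM in replicate 2). The pooled level was 34.0-fold higher in primary cells (exact 95% interval 11.1 to 170). This was not called (log2 -4.61, SE 2.13, adjusted p = 0.336), and metastatic c-Myc-high replicate 1 reached 5.65 CPM against 6.27 CPM in the highest primary library. Mmp12, the macrophage elastase, reached 15.9 CPM in primary c-Myc-high replicate 2 and at most 7.22 CPM elsewhere. It shares genome positions with Mmp1b on the other strand, and the counting is not stated to use strand. Mmp1a and Mmp1b are close paralogues, and how reads matching both were split is not stated. Mmp1a reached 13.2 CPM in metastatic c-Myc-high replicate 1 and at most 3.99 CPM elsewhere. Its 49 counts there, against 0 in primary c-Myc-high cells, put it at least 8.09-fold higher against a floor of 3 counts over the group, with no call (adjusted p = 0.265). Mmp27 stayed at or under 4.05 CPM and Mmp7 at or under 1.63 CPM in every library. Mmp11, a stromelysin by name that lies on another chromosome, ranged from 0 to 9.57 CPM and was not called.

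**Figure D3:**
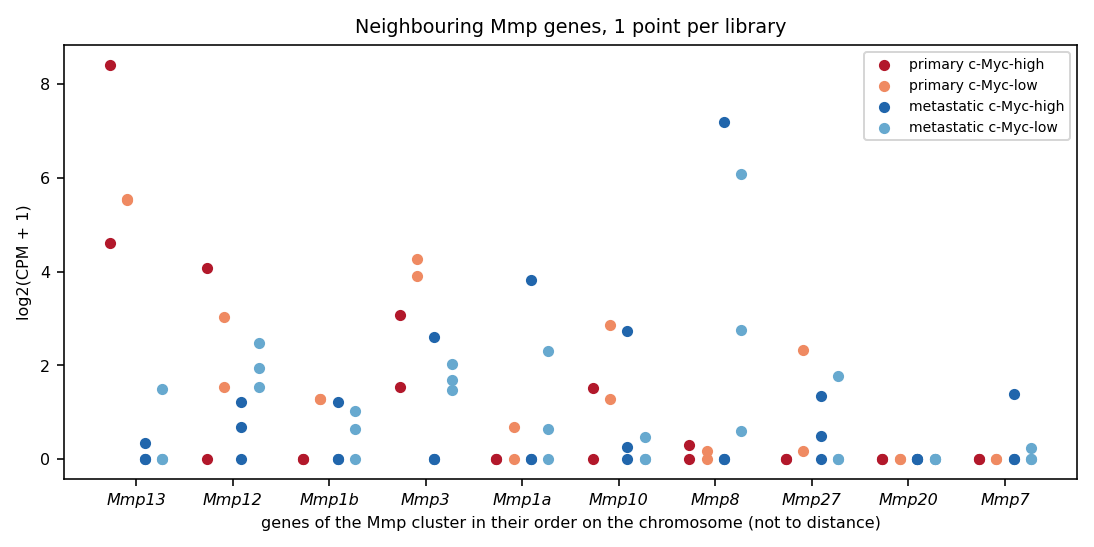
Level of the 10 neighbouring Mmp genes in their chromosomal order (horizontal axis, not to distance) as log2(CPM + 1), 1 point per library coloured by group. The primary libraries are highest at Mmp13, while at Mmp8 only metastatic libraries exceed 0.24 CPM.

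Mmp8, Mmp9 and Mmp25 are best known from neutrophils: Mmp8 is their collagenase, Mmp9 a gelatinase stored in their granules and Mmp25 a membrane-anchored MMP of leukocytes. Mmp8 stood at 0.24 and 0 CPM in primary c-Myc-high and at 0.12 and 0 CPM in primary c-Myc-low libraries. Among metastatic libraries the values were 0, 146 and 0 CPM in c-Myc-high and 0.51, 5.79 and 66.6 CPM in c-Myc-low cells. Both high values fell in the neutrophil-rich libraries. Over all libraries 1125 counts in metastases stood against 2 in primary cells, a ratio of 302 (exact 95% interval 83.5 to 2499). The averaged log2 difference of 7.89 (SE 2.47) was not called (adjusted p = 0.0536), and 2 metastatic libraries were at 0 CPM.

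Mmp9 stood at 0.48 and 0 CPM in primary c-Myc-high and at 4.10 and 14.2 CPM in primary c-Myc-low libraries. Lymph node metastases gave 0, 78.5 and 4.60 CPM in c-Myc-high and 2.17, 4.38 and 39.4 CPM in c-Myc-low libraries. Again the neutrophil-rich libraries were the highest and the sites overlapped. The averaged log2 difference was 3.51 (SE 1.61, adjusted p = 0.165), and 0.54 (SE 1.33, adjusted p = 0.852) without the neutrophil-rich libraries. Of the Mmp9 counts 69.5% lay on a transcript annotated as processed and 25.7% on the protein-coding one.

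Mmp25 (ENSMUSG00000023903.8, GRCm38 chr17:23628311-23645277, minus strand) was called higher in metastases only in the average over both classes. It stood at 0 and 0 CPM in primary c-Myc-high and at 0.12 and 0 CPM in primary c-Myc-low libraries. Libraries of metastases held 8.88, 19.2 and 0 CPM in c-Myc-high and 1.79, 3.73 and 10.3 CPM in c-Myc-low cells. Of 6 metastatic libraries 5 lay above every primary one. The averaged log2 difference was 7.11 (SE 1.88, adjusted p = 0.0305). In counts, 226 in metastases stood against 1 in primary cells, a ratio of 121 (exact 95% interval 21.6 to 4818). The call was lost without either primary c-Myc-high library (adjusted p = 0.110 without replicate 1, 0.0610 without replicate 2), either primary c-Myc-low library (0.133, 0.127), metastatic c-Myc-low replicate 2 (0.0621) or replicate 3 (0.0598). Without both neutrophil-rich libraries the difference was 6.06 (SE 1.93, adjusted p = 0.0904). Within metastases the pan-leukocyte sum was 1220, 4592 and 246 CPM in c-Myc-high and 431, 1472 and 2946 CPM in c-Myc-low replicates 1, 2 and 3. The lowest and the highest Mmp25 level fell in the libraries with the lowest and the highest of these sums. Their part in the Mmp25 difference was not tested. The neutrophil list had 8 of 10 markers detected in each primary group, with Camp and Elane at 0 in primary c-Myc-high and Mpo and Ltf at 0 in primary c-Myc-low libraries, and S100a8, S100a9 and Cxcr2 carried most of the primary sums. All 10 were detected in both metastatic groups, where the sums were 82.9 to 12915 CPM in c-Myc-high and 175 to 4091 CPM in c-Myc-low libraries.

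**Figure D4:**
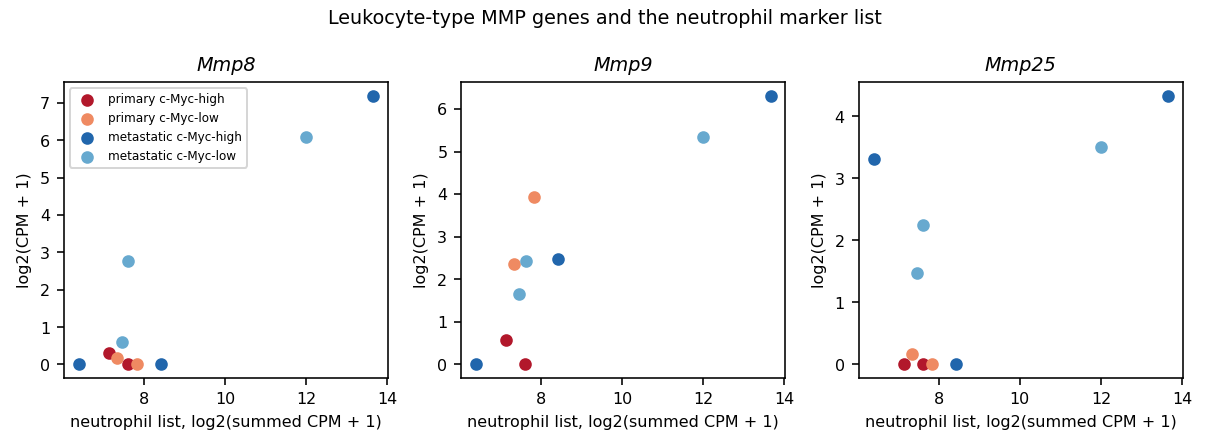
Level of Mmp8, Mmp9 and Mmp25 (vertical axes, log2(CPM + 1)) against the summed level of 10 neutrophil markers (horizontal axis, log2 of the summed CPM + 1), 1 point per library coloured by group. The 2 libraries at the right, with 12915 and 4091 CPM of these markers, are the highest for all 3 genes, and for Mmp25 another library with a low sum lies near them.

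Mmp2, the gelatinase made mainly by stromal cells and activated by Mmp14 with Timp2, did not follow Mmp9. It stood at 13.2 and 30.8 CPM in primary c-Myc-high and at 45.3 and 36.7 CPM in primary c-Myc-low libraries. Its metastatic levels were 1.34, 47.7 and 25.6 CPM in c-Myc-high and 53.7, 56.0 and 89.4 CPM in c-Myc-low libraries. The sites overlapped, the averaged log2 difference being 0.44 (SE 0.76, adjusted p = 0.756). The c-Myc-low libraries of metastases were the highest of all, with no call between the classes (log2 -1.41, SE 0.96, adjusted p = 1).

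Among the 6 membrane-type MMPs, which work at the cell surface, Mmp14 and Mmp16 had the highest mean RPKM. Mmp14, the chief activator of pro-Mmp2, stood at 150.0 and 1.87 CPM in primary c-Myc-high and at 34.2 and 22.8 CPM in primary c-Myc-low libraries. Among metastatic libraries the values were 89.8, 20.0 and 124 CPM in c-Myc-high and 118, 77.7 and 44.1 CPM in c-Myc-low cells. The 2 primary c-Myc-high replicates spanned the whole range, and no comparison called Mmp14. Mmp16, a relative of Mmp14, stood at 63.6 and 14.9 CPM in primary c-Myc-high and at 7.72 and 6.07 CPM in primary c-Myc-low libraries. Lymph node metastases gave 32.0, 7.75 and 14.8 CPM in c-Myc-high and 119, 120.4 and 29.6 CPM in c-Myc-low libraries. The order of the classes was thus opposite at the 2 sites, with the c-Myc-high libraries higher in primary cells and lower in metastases, apart from metastatic c-Myc-high replicate 1 (32.0 CPM), which lay just above metastatic c-Myc-low replicate 3 (29.6 CPM). The difference between the sites in the c-Myc contrast was -4.82 on the log2 scale (SE 1.38, unadjusted p = 0.00455) and did not pass edgeR's adjustment over all genes (adjusted p = 0.725). DESeq2 gave an adjusted p of 0.0472 for the same term. The Mmp16 counts did not lie on the same transcripts throughout. The transcript with most counts in primary c-Myc-high libraries (197 and 16.0) had 74.0, 0 and 0 in metastatic c-Myc-low libraries. The one with most counts in metastatic c-Myc-low libraries (480.5, 575 and 96.3) had 12.4 and 0 in primary c-Myc-high libraries. Mmp15 ranged from 0.611 to 54.2 CPM, Mmp17 from 0 to 8.42 CPM and Mmp24 from 0 to 19.7 CPM, each with overlap between the sites and no call.

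Among the remaining MMPs, Mmp28 (epilysin), known from keratinocytes, stood at 16.3 and 9.33 CPM in primary c-Myc-high and at 29.8 and 11.8 CPM in primary c-Myc-low libraries. Libraries of metastases held 2.42, 1.22 and 9.20 CPM in c-Myc-high and 6.13, 2.83 and 1.10 CPM in c-Myc-low cells. All primary libraries lay above all metastatic ones, the nearest pair being 9.33 and 9.20 CPM. The averaged log2 difference of -2.12 (SE 0.84) did not pass the threshold (adjusted p = 0.112). The keratinocyte sum was lower in every metastatic library. Among the primary libraries, c-Myc-high replicate 2 had the lowest Mmp28 level (9.33 CPM) and the highest keratinocyte sum (85754 CPM). The part of keratinocytes was not tested. Mmp19 ranged from 0 to 14.0 CPM, Mmp23 from 0 to 3.86 CPM, and neither was called.

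The ADAMTS genes that cut the large proteoglycans aggrecan and versican held Adamts1, the protease with the highest mean RPKM of the set. Adamts1 (GRCm38 chr16:85793827-85803113, minus strand) stood at 43.2 and 184 CPM in primary c-Myc-high and at 110.4 and 149 CPM in primary c-Myc-low libraries. Its metastatic levels were 329, 40.2 and 389.7 CPM in c-Myc-high and 543, 357 and 111 CPM in c-Myc-low libraries. The sites overlapped, and the averaged log2 difference was 1.27 (SE 0.72, adjusted p = 0.267). Its neighbour Adamts5 stood at 26.6 and 165 CPM in primary c-Myc-high and at 11.2 and 15.6 CPM in primary c-Myc-low libraries. In metastases Adamts5 stood at 70.5, 5.91 and 41.9 CPM and at 67.5, 41.0 and 10.8 CPM in the 2 classes. Both genes were lowest, within each metastatic class, in the neutrophil-rich library. Neither was called in any comparison.

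Adamts4, the third well-known aggrecanase, stood at 127 CPM in metastatic c-Myc-high replicate 3 and at 0 to 25.5 CPM in the other libraries. Adamts9, which also cuts versican, ranged from 10.7 to 15.3 CPM in primary and from 5.50 to 35.0 CPM in metastatic libraries. Adamts20, whose loss in mice causes white belts of fur by a defect of pigment cells, stood at 3.84 and 0.93 CPM in primary c-Myc-high and at 0.48 and 0.87 CPM in primary c-Myc-low libraries. In metastases Adamts20 stood at 10.8, 1.02 and 18.4 CPM in c-Myc-high and at 44.5, 25.7 and 2.94 CPM in c-Myc-low libraries. In the average its log2 difference was 3.56 (SE 1.12, adjusted p = 0.0555), and the neutrophil-rich libraries were again the lowest of their groups. Without those 2 libraries, a fit chosen after seeing the data, it was 4.02 (SE 0.94, adjusted p = 0.0301). Leaving out the lowest metastatic levels raises such a difference by itself, so Adamts20 is not counted as called. Without both salivary-rich libraries the Adamts20 difference was 1.87. That fit left 1 metastatic c-Myc-high library, the neutrophil-rich replicate 2 at 1.02 CPM. The melanocyte and melanoma marker sum was higher in every metastatic library than in every primary one, and its part was not tested. Adamts15 had 41 counts in primary c-Myc-high cells, all in replicate 2 at 38.2 CPM, while the 3 metastatic c-Myc-high libraries had none. Against the floor it was at least 27.6-fold higher in the primary cells. Its log2 difference of -9.52 (SE 3.24, adjusted p = 0.113) in c-Myc-high cells was not called and rested on that library.

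The procollagen N-proteinases, which trim new fibrillar collagen, went separate ways without a call. Adamts2 stood at 0 and 2.80 CPM in primary c-Myc-high and at 0.60 and 2.02 CPM in primary c-Myc-low libraries. Among metastatic libraries the values were 68.9, 3.06 and 5.62 CPM in c-Myc-high and 11.6, 7.21 and 3.31 CPM in c-Myc-low cells. The sites did not overlap, the nearest pair being 2.80 and 3.06 CPM, and the averaged log2 difference of 3.52 (SE 1.33) had an adjusted p of 0.0992. Adamts14 stood at 0.48 and 18.7 CPM in primary c-Myc-high and at 22.3 and 23.7 CPM in primary c-Myc-low libraries. In metastases it ranged from 0.54 to 13.8 CPM, with an averaged log2 difference of -1.40 (SE 1.07, adjusted p = 0.419). Of the proteases of cartilage oligomeric matrix protein, Adamts12 stood at 0 to 4.05 CPM in primary, 0 to 5.11 CPM in metastatic c-Myc-high and 34.3, 25.2 and 8.83 CPM in metastatic c-Myc-low libraries. Its averaged log2 difference was 3.14 (SE 1.24, adjusted p = 0.114). Without both salivary-rich libraries it was -0.48, but that fit left 1 metastatic c-Myc-high library, the neutrophil-rich replicate 2, with 0 CPM of Adamts12. Adamts7 ranged from 0 to 9.68 CPM and was not called.

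Adamts10, which binds fibrillin microfibrils, was the ADAMTS gene called between the sites. Adamts10 (ENSMUSG00000024299.17, GRCm38 chr17:33524204-33553782, plus strand) stood at 0.24 and 0 CPM in primary c-Myc-high and at 0.84 and 3.47 CPM in primary c-Myc-low libraries. Lymph node metastases gave 26.4, 55.8 and 11.2 CPM in c-Myc-high and 33.9, 57.1 and 57.2 CPM in c-Myc-low libraries. Every metastatic library lay above every primary one. The averaged log2 difference was 5.91 (SE 0.95, edgeR adjusted p = 0.0025). In c-Myc-high cells it was 7.27 (SE 1.49, adjusted p = 0.0237), with 394 counts against 1 and a ratio of 195 (exact 95% interval 34.8 to 7725). In c-Myc-low cells it was 4.55 (SE 1.17, adjusted p = 0.0733). Adamts10 had 12 deposited transcripts, and 58.7% of its counts lay on retained-intron, 29.7% on nonsense-mediated-decay and 11.0% on protein-coding transcripts. All counts on the protein-coding transcripts, 59.3, 76.8 and 21.7, came from the 3 metastatic c-Myc-low libraries. Some nonsense-mediated-decay transcripts carried exactly the same estimated counts in every library. The share of the coding type was thus not resolved from theirs. With its single most abundant transcript in place of the sum, the adjusted p was 0.0523 in the average and 0.133 in c-Myc-high cells. Leaving out metastatic c-Myc-low replicate 2 (adjusted p = 0.0595) or both neutrophil-rich libraries (0.0936) also ended the call in c-Myc-high cells. That call was absent too without replicate 1 of the primary c-Myc-high group or both salivary-rich libraries, fits that each left 1 library in a group. The pan-leukocyte and B cell marker sums were likewise higher in every metastatic than in every primary library, and the lowest metastatic Adamts10 level fell in the library with the lowest pan-leukocyte sum (246 CPM). The part of these cells in the Adamts10 difference was not tested. RefSeq's promoter table held no entry for Adamts10. Of the other genes in this class, Adamts6 ranged from 0.58 to 14.3 CPM and Adamts17 from 0 to 6.65 CPM without a call.

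**Figure D5:**
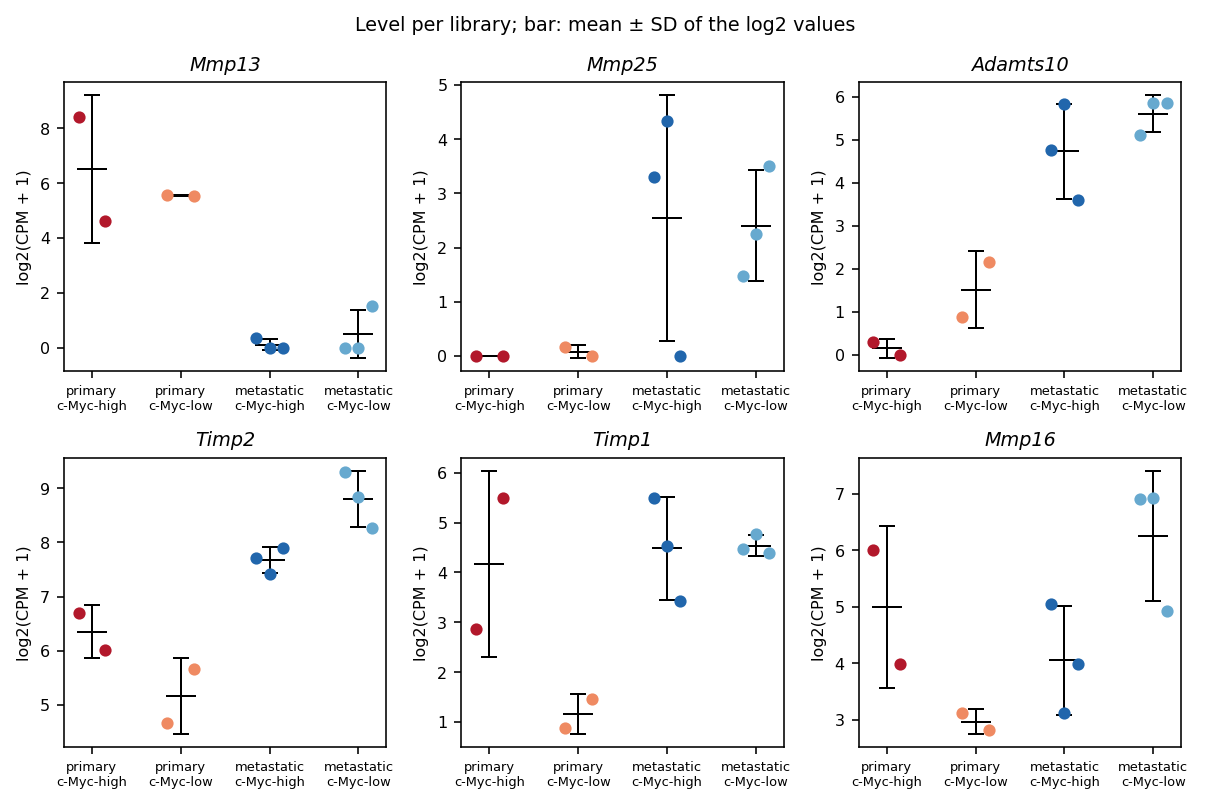
Levels of Mmp13, Mmp25, Adamts10, Timp2, Timp1 and Mmp16 in each library (points) as log2(CPM + 1) by group, with bars for the mean ± SD of the log2 values (n = 2 primary, n = 3 metastatic per class). For Mmp13, Adamts10 and Timp2 the metastatic and primary libraries do not overlap, and Timp1 is lowest in the 2 primary c-Myc-low libraries.

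Of the inhibitors, Timp2 was higher in metastases. Timp2 (ENSMUSG00000017466.9, GRCm38 chr11:118301069-118355740, minus strand), which both blocks MMPs and helps Mmp14 to activate pro-Mmp2, stood at 102 and 63.4 CPM in primary c-Myc-high and at 24.5 and 49.7 CPM in primary c-Myc-low libraries. Libraries of metastases held 208, 169 and 237 CPM in c-Myc-high and 628, 458 and 307 CPM in c-Myc-low cells. Every metastatic library lay above every primary one, and the metastatic c-Myc-low libraries were the highest. The averaged log2 difference was 2.47 (SE 0.50, adjusted p = 0.00825). Within c-Myc-low cells Timp2 differed by 3.65 (SE 0.76, adjusted p = 0.0283), and within c-Myc-high cells by 1.30 (SE 0.67, adjusted p = 0.233). The difference between these was -2.35 (SE 0.92, unadjusted p = 0.0255, adjusted p = 0.725) and so was not called. The averaged call ended when replicate 1 of the primary c-Myc-low group was left out (adjusted p = 0.0865). The call in c-Myc-low cells was lost without either primary c-Myc-low replicate (0.442 without replicate 1, 0.177 without replicate 2) or any 1 of the 3 metastatic c-Myc-low replicates (0.107, 0.110 and 0.0632), and without both neutrophil-rich libraries (0.0718). The gene shares positions with Cep295nl on the same strand, whose reads cannot be told apart from it where they overlap.

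Timp1, an inducible inhibitor encoded on the X chromosome, stood at 6.24 and 43.8 CPM in primary c-Myc-high and at 0.84 and 1.73 CPM in primary c-Myc-low libraries. Its metastatic levels were 44.1, 22.0 and 9.72 CPM in c-Myc-high and 21.1, 26.3 and 19.9 CPM in c-Myc-low libraries. The primary c-Myc-low libraries lay below all 8 others. Metastatic over primary c-Myc-low cells gave a log2 difference of 4.13 (SE 1.23, adjusted p = 0.116). Primary c-Myc-high over primary c-Myc-low cells gave 4.27 (SE 1.28, adjusted p = 0.419). Neither passed in edgeR, while DESeq2 gave adjusted p-values of 0.00212 and 0.0115. Timp3, the inhibitor that stays bound to matrix and also blocks ADAMTS proteases, stood at 141 and 156 CPM in primary c-Myc-high and at 46.5 and 98.3 CPM in primary c-Myc-low libraries. Among metastatic libraries the values were 79.1, 49.5 and 315 CPM in c-Myc-high and 439.7, 287 and 114 CPM in c-Myc-low cells, with overlap and no call (averaged log2 0.97, SE 0.63, adjusted p = 0.338). Timp4, an inhibitor best known from heart, stayed at or under 1.93 CPM, with 35 counts in all. Timp1, Timp3 and Timp4 each lie within a synapsin gene (Syn1, Syn3 and Syn2) read on the other strand. The counting is not stated to use strand.

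Between the GFP classes no member was called by edgeR, nor was any other gene. In primary tumours 0 of 35 members and 0% of all genes passed. At an unadjusted p under 0.05 there were 4 members (11.6% of all genes), and DESeq2 called 1 member, Timp1, and 2.81% of all genes. The 4 were Timp1, Mmp16 (log2 2.52, SE 1.07) and Adamts5 (2.83, SE 1.28), above 0 in c-Myc-high cells, and Adamts10 (-3.38, SE 1.47), below 0. In metastases edgeR called 0 members and 0% of all genes. At an unadjusted p under 0.05 there was 1 member (4.8% of all genes), Mmp16 at -2.30 (SE 0.86), and DESeq2 called 0 members and 0.593% of all genes. Averaged over both sites edgeR called 0 members and 0% of genes. There were 3 members at an unadjusted p under 0.05 (12.9% of all genes), namely Timp1 (2.22, SE 0.76), Adamts10 (-2.02, SE 0.85) and Adamts12 (-2.87, SE 1.20). DESeq2 called 1 of these, Timp1, with an adjusted p of 0.0353, and 3.3% of all genes. For the difference of the c-Myc contrast between sites edgeR called 0 members and 0% of genes. There were 4 members at an unadjusted p under 0.05 (6.84% of all genes), Mmp16, Timp1 (-4.09, SE 1.51), Timp2 and Adamts15 (-10.64, SE 4.19), all below 0, and DESeq2 called 1, Mmp16, and 0.592% of all genes. The median log2 difference of members was -0.20 in primary tumours and -0.40 in metastases, against -0.12 and 0 over all genes.

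To compare levels between genes, the authors' RPKM, which accounts for transcript length, was summed per gene. Averaged over all libraries Timp2 was the highest member at 13.5 RPKM, followed by Adamts1 (9.07), Timp3 (7.69), Mmp14 (5.36), Mmp16 (3.96), Timp1 (3.77) and Mmp13 (3.59). Neighbours in this order overlapped across libraries. By group mean Mmp13 was the highest in primary c-Myc-high cells, through replicate 1 alone (28.2 and 0.47 RPKM), since Timp1 led replicate 2 at 2.69 RPKM. In primary c-Myc-low cells Adamts1 led both libraries, at 6.45 and 3.90 RPKM, and Mmp13 had 4.89 and 2.17 RPKM. Timp2 led each metastatic c-Myc-low library, at 52.8, 32.6 and 15.6 RPKM. In metastatic c-Myc-high cells Timp2 had the highest mean (8.11, 10.4 and 5.20 RPKM) without leading any library, since Adamts1 led replicates 1 and 3 (9.73 RPKM in the first) and Mmp9 replicate 2 (14.3 RPKM). Of that Mmp9 value 12.6 RPKM lay on its processed transcript and 1.09 on the protein-coding one, and Mmp8 stood at 13.5 RPKM there. In primary c-Myc-high replicate 1, 12.3 of the 13.2 RPKM of Mmp16 lay on 1 transcript. Family sums below include all transcripts of a gene, coding or not. Summed over families, MMPs made up 75.3% and 28.4% of the members' RPKM in primary c-Myc-high and 61.4% and 51.4% in primary c-Myc-low libraries. In metastases they made up 25.4%, 58.9% and 25.8% in c-Myc-high and 22.1%, 23.7% and 43.1% in c-Myc-low libraries. The 2 metastatic libraries with the highest MMP shares were the neutrophil-rich ones. The ratio of summed TIMP to summed MMP RPKM was 0.247 and 1.41 in primary c-Myc-high, 0.211 and 0.429 in primary c-Myc-low, 1.52, 0.476 and 1.49 in metastatic c-Myc-high and 2.28, 2.07 and 0.901 in metastatic c-Myc-low libraries. The sites overlapped in this ratio through primary c-Myc-high replicate 2. RPKM of a message is no measure of enzyme or inhibitor activity.

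Some genes that act on these enzymes were called between the sites. The background in the average over both classes was 8.13% of all tested genes called higher and 5.64% called lower, and nothing particular to the lists below is read from their counts. Of 10 activators and plasminogen system genes, 9 were tested, and in that average 2 were higher and 2 lower in metastases. Serpinb2, the plasminogen activator inhibitor of keratinocytes and macrophages, stood at 507 and 1249 CPM in primary c-Myc-high and at 1088 and 896 CPM in primary c-Myc-low libraries. It stood at 0 to 2.56 CPM in metastases, and was lower in c-Myc-high (log2 -9.74, SE 1.29, adjusted p = 0.00295) and in c-Myc-low cells (-10.28, SE 1.30, adjusted p = 0.00237). Plau, the urokinase that makes plasmin, was at 22.5 to 37.1 CPM in primary and 0 to 3.57 CPM in metastatic libraries (averaged log2 -4.40, SE 0.92, adjusted p = 0.00985). Its receptor Plaur ran the other way, at 0 to 2.88 CPM in primary and 6.64 to 86.8 CPM in metastatic libraries (5.14, SE 1.12, adjusted p = 0.0118). Serpine2, a protease inhibitor, was also higher (3.38, SE 0.71, adjusted p = 0.00999).

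Of 14 other regulators 12 were tested, and 2 were higher and 1 lower in the average. Reck, a membrane protein that blocks MMPs, stood at 0 to 2.89 CPM in primary and 3.06 to 81.9 CPM in metastatic libraries (log2 5.40, SE 1.20, adjusted p = 0.0131). Adamtsl4, an ADAMTS-like protein without protease domain that binds microfibrils, stood at 0 to 5.20 CPM and 7.75 to 58.5 CPM at the 2 sites (4.51, SE 0.94, adjusted p = 0.00942). In c-Myc-high cells alone it was also called (6.16, SE 1.51, adjusted p = 0.0452). Lrp1, the receptor that clears MMPs, ADAMTS proteases and TIMPs from the cell surface, stood at 68.8 to 368 CPM in primary and 14.5 to 59.5 CPM in metastatic libraries (-2.44, SE 0.53, adjusted p = 0.0114). Lrp1 was also lower in c-Myc-high cells alone (-3.48, SE 0.77, adjusted p = 0.0318).

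Of 18 matrix substrates 17 were tested, and 3 were higher and 0 lower in the average. These were the basement membrane collagen Col4a2 (log2 3.63, SE 0.75, adjusted p = 0.00924), the collagen-binding Sparc (2.28, SE 0.56, adjusted p = 0.0198) and Vwf, the substrate of Adamts13 (4.54, SE 1.25, adjusted p = 0.0329). Col4a2 and Vwf are also products of endothelial cells, whose 9 markers gave overlapping sums, at 27.1 to 883 CPM in primary and 84.2 to 555 CPM in metastatic libraries. Of these markers only Pecam1 separated the sites, at 1.20 to 4.62 CPM in primary and 33.2 to 373 CPM in metastatic libraries. The others overlapped, and Flt1 stood at 878 CPM in primary c-Myc-high replicate 1 and at 0 to 44.1 CPM in metastases. The part of endothelial cells was not tested. Of 10 inducers of MMP genes all 10 were tested, and 2 were higher and 1 lower in the average. Ets1, a transcription factor that acts on MMP promoters, stood at 9.25 to 43.4 CPM in primary and 106 to 441 CPM in metastatic libraries (3.82, SE 0.67, adjusted p = 0.00422), and it was also called in c-Myc-high cells (4.02, SE 0.97, adjusted p = 0.0428). Il1b, an inflammatory cytokine, was higher (6.44, SE 1.90, adjusted p = 0.0432), with 802 and 343 CPM in the neutrophil-rich libraries and at most 28.4 CPM elsewhere. The pan-leukocyte and B cell marker sums were also higher in every metastatic library, while the sums of the other leukocyte lists overlapped between the sites. The part of leukocytes in Ets1, Plaur and Il1b was not tested. Fosl1, an AP-1 subunit, stood at 396 and 11.2 CPM in primary c-Myc-high, 77.4 and 27.5 CPM in primary c-Myc-low and 0 to 7.13 CPM in metastatic libraries (-4.97, SE 1.09, adjusted p = 0.0127). The other AP-1 genes of the list, Fos, Fosb, Jun and Junb, were not called (-0.71, SE 0.44, -0.84, SE 0.57, -0.47, SE 0.44 and 1.13, SE 0.62; adjusted p = 0.308, 0.359, 0.527 and 0.243). The other tested genes of these 4 lists passed in no comparison, and no listed gene passed between the GFP classes.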

How the data were processed

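RNA of 10 sorted mouse melanoma libraries was extracted with RNAqueous-Micro, amplified and prepared with Ovation kits and sequenced on an Illumina HiSeq, per the labels' protocols. The authors deposited 1 table of 92214 transcripts with estimated counts, not scaled between libraries, and with the authors' RPKM, scaled to length and library size. Bowtie2, limma and the mm10 build are named in the submitters' processing notes. The sources used here give no strandedness, annotation release or program for assigning reads to transcripts.

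Estimated counts were summed by gene name over all transcripts (131 for the members) and rounded. Genes passing edgeR's default filter (16805) were scaled by TMM. Robust quasi-likelihood tests (edgeR 4.0.16, R 4.3.3) used the 10 libraries of all groups and no covariate. The biological coefficient of variation was 0.876. P-values were adjusted by Benjamini-Hochberg over all tested genes within each comparison, and genes under 0.05 were called. Adjusted p-values are edgeR's unless DESeq2 1.42.0 is named, and standard errors come from the F statistic. The comparisons were metastatic against primary cells in each GFP class and averaged over both, c-Myc-high over c-Myc-low at each site and averaged, and the difference of the c-Myc contrast between sites. CPM are counts over the TMM-scaled library size. Exact 95% binomial intervals on pooled counts, and floors of 3 counts over a group, cover counting error only, and no molecular identifiers are named in the labels. Tables and figures were made in Python 3.11.15 with pandas 2.3.3 and matplotlib 3.10.9.

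Replicates were compared by chi-square, whose statistic per degree of freedom was 44.7 to 222, so none was a copy of another. The fit was tested on simulated data with known changes. Positions are 1-based, from GENCODE M21 on GRCm38, which holds 127 of the 131 transcripts. The members and lists were chosen with earlier results of these data known. Named with values were members called in any comparison, those with a mean of at least 5 CPM (24) and every TIMP, others being given by range. From the gene lists, called genes were named, at most 4 per list and comparison. Fits with another normalization, filter, tool, transcript choice, a replicate block, the 2 groups alone or a library left out were alternatives. Fits without both salivary-rich (marker sum above 10000 CPM) or neutrophil-rich libraries (above 1000 CPM) were chosen after seeing the data. Without both salivary-rich libraries the metastatic c-Myc-high group held 1 library, the neutrophil-rich replicate 2, so salivary RNA was not the only thing that changed. Leaving out a primary library likewise left 1 library in its group.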

Additional observations from a re-analysis of the deposited data

How the results depend on the processing

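No fold change of a called member reversed in any alternative. Counts of members called are given with the share of all genes that the same fit called. Against 2 members (3.97% of all genes) in c-Myc-high cells between sites, 5 were called with DESeq2 (21%), 1 with limma-voom (0.994%), 1 with the single highest transcript per gene (2.06%), 1 with the replicate block (0.893%), 1 with the 2 groups alone (1.12%), 0 without both salivary-rich (0%) and 1 without both neutrophil-rich libraries (1.36%), and 0 to 3 with 1 library left out (1.64% to 6.98%). Against 1 (2.11%) in c-Myc-low cells, 7 were called with DESeq2 (10.3%), 15 with limma-voom (23.5%), 8 with the 2 groups alone (13.9%), 3 without a filter (3.11%), 0 with the single highest transcript (1.38%), 0 with the replicate block (0.833%), 2 without both salivary-rich libraries (3.66%), and 0 to 2 with 1 library left out (0.776% to 3.42%). Against 4 (13.8%) in the average over both classes, DESeq2 called 10 (24.1%), and leaving out 1 library gave 2 to 7 (3.97% to 16.7%). DESeq2 called 1 member, against 0, in primary tumours between the GFP classes (2.81%), in the average of that contrast (3.3%) and in its difference between sites (0.592%). The causes were not tested. Size factors of the RLE kind moved the median log2 difference of all genes in primary tumours from -0.12 to 0 and changed no member's call.

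Deviations from the group mean in same-numbered samples of the 2 GFP classes had correlations of 0.0891, -0.207 and -0.338 in metastases and 0.0763 in primary tumours. With groups of 2 or 3 libraries of unequal cell content, these values cannot show whether same-numbered samples share an animal, and the labels do not state it. With the replicate block, Adamts10 in c-Myc-high cells (adjusted p = 0.0685), Timp2 in c-Myc-low cells (0.105) and Mmp25 in the average (0.0973) lost their calls. With limma-voom and with the 2 groups alone Adamts10 in c-Myc-high cells also lost its call (0.198 and 0.157), as did Timp2 in c-Myc-low cells with the single highest transcript (0.0544). With 2 or 3 libraries a group the spread is loosely estimated, and levels under about 3 CPM rest on few counts in the shallowest library.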
